A study of Mus musculus with 516 samples.

Results

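The nuclear genes of oxidative phosphorylation were described in single cells of mouse sensory ganglia, the dorsal root ganglia, whose neurons serve the trunk and limbs. Members were taken by symbol from a table of 11251 genes: symbols beginning with Ndufa, Ndufb, Ndufc, Ndufs or Ndufv, with Uqcr, with Cox4 to Cox8 or with Atp5, and the genes Sdha to Sdhd. This gave 83 genes, of which 74 encode subunits: 36 of complex I, 4 of complex II, 8 of complex III, 11 of complex IV and 15 of complex V. The other 9 matched by name alone. They are 7 Ndufaf genes, which encode assembly factors of complex I, and Atp5s and Atp5sl. Each gene in the table, and so each of the 83 members, was detected in 60 or more cells, and no further filter was applied.

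Oxidative phosphorylation takes place in the inner mitochondrial membrane, where complexes I to IV pass electrons to oxygen and complex V, the ATP synthase, uses the resulting proton gradient to make ATP. Most subunits are encoded in the nucleus, while a small core of complexes I, III, IV and V is encoded by mitochondrial DNA, so the genes described here cover only the nuclear side. Sensory neurons supply mitochondria from the cell body to very long axons.

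Each sample was 1 cell, caught on a Fluidigm C1 chip and sequenced from polyA RNA without molecular identifiers. Cultured and naive cells came from CAST/Ei, a wild-derived inbred strain, and from C57BL/6, the strain of the reference genome. Cultured cells, labelled injured, had been plated on plastic for 48 h as an in vitro axotomy, with ara-C, which stops dividing cells, added at 24 h, and lifted with trypsin. Naive cells were caught after dissociation. Both kinds went through Percoll and a 35 µm mesh, and the strain is the only genotype given. Cultured CAST/Ei cells made up 19.2% of the 516 cells (99 cells), naive CAST/Ei cells 33.7%, cultured C57BL/6 cells 21.5% and naive C57BL/6 cells 25.6%. No label ties a cell to an animal, dish or chip. Each group therefore counted as 1 sample, differences between groups have no replicate check, no p-value is given, and the 95% Poisson intervals cover counting error only.

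The cells had between 13932 and 2978345 reads (median 839147). Reads were summed over the cells of a group and scaled to counts per 1000000 (CPM), and a difference is the log2 ratio of both levels after 1 CPM was added to each. Among 15 clusters of cells, those in which a list of 18 neuron markers had the highest mean were called neuron-like, apart from 1 cluster of 34 naive cells that was left unnamed. Neuron-like cells were 61.6% of the cultured CAST/Ei cells (exact 95% binomial interval 51.3 to 71.2%), 89.7% of the naive CAST/Ei cells (84.1 to 93.8%), 31.5% of the cultured C57BL/6 cells (23.04 to 41.04%) and 87.9% of the naive C57BL/6 cells (81.1 to 92.9%). Values below are for neuron-like cells unless all cells are named. The 18 neuron markers, all in the table, summed to 13419 CPM (cells 2129 to 46279.8) in cultured and 19043 CPM (cells 9362 to 35267) in naive CAST/Ei cells, and to 12914 CPM (cells 3156 to 31729) in cultured and 19018 CPM (cells 6366 to 42820.4) in naive C57BL/6 cells. The 14 glial markers in the table of 15 listed summed to 3198 CPM (cells 748 to 9922) in cultured and 2426 CPM (cells 84.2 to 7415) in naive CAST/Ei cells, and to 3645 CPM (cells 415 to 8834) in cultured and 2851 CPM (cells 48.7 to 10240.4) in naive C57BL/6 cells. The 10 fibroblast markers summed to 1479 CPM (cells 10.05 to 6339) in cultured and 516 CPM (cells 0 to 6509) in naive CAST/Ei cells, and to 1561 CPM (cells 0 to 7785) in cultured and 394 CPM (cells 0 to 15466) in naive C57BL/6 cells. The 8 markers of dividing cells summed to 1078 CPM (cells 0 to 4195) in cultured and 13.9 CPM (cells 0 to 129.2) in naive CAST/Ei cells, and to 1322 CPM (cells 0 to 4039) in cultured and 7.76 CPM (cells 0 to 95.2) in naive C57BL/6 cells. The 4 mural markers in the table of 7 listed summed to 45.4 CPM (cells 0 to 1234) in cultured and 275 CPM (cells 0 to 10578) in naive CAST/Ei cells, and to 250.4 CPM (cells 0 to 7873) in cultured and 1296 CPM (cells 0 to 17253) in naive C57BL/6 cells. None of these markers was without reads in a group. The part of such RNA in the differences below was not tested, and fewer cells of a type and less RNA per cell cannot be told apart in summed reads.

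RefSeq promoter windows on GRCm38.p6, from 250 bases before to 50 bases after a start, were matched to 71 of the 83 members. They were searched on both strands for GCATGCGC, the letters of nuclear respiratory factor 1 (NRF1), CCGGAAGT of ETS factors such as NRF2, AAGATGGCG of YY1 and TCAAGGTCA of oestrogen-related receptors (ERR), which are known regulators of this pathway. At least 1 of these stood in a window of 26 matched members (36.6%), against 18.3% of the 9042 matched genes of the table and 8.93% of all 27025 genes with a window. NRF1 letters stood in 16.9% of the members, against 6.26% of the table's genes and 3.05% of all genes. YY1 letters stood in 11.3%, against 3.79% and 1.64%, and ERR letters in 2.82% (2 genes), against 0.254% and 0.466%. ETS letters stood in 5 members (7.04%), against 9.39% and 4.31%. These shares were not tested, and those of ETS and ERR rest on few members. The 6 stretches of 120 bases printed here, at least 1 for each complex, show where such letters lie, in capitals. They are chr17:56717642-56717761 (Ndufa11, + strand), chr4:140961151-140961270 (Sdhb, + strand), chr10:80406818-80406937 (Uqcr11, - strand), chr5:115349019-115349138 (Cox6a1, - strand), chr15:102671048-102671167 (Atp5g2, - strand) and chr2:73911327-73911446 (Atp5g3, - strand).
Ndufa11: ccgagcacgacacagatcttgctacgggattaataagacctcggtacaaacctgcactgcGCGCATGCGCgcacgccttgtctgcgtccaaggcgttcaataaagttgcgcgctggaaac
Sdhb: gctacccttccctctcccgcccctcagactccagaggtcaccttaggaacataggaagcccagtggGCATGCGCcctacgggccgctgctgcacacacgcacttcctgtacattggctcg
Uqcr11: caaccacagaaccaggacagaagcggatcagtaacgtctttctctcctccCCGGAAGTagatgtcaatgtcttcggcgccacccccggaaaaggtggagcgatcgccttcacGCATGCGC
Cox6a1: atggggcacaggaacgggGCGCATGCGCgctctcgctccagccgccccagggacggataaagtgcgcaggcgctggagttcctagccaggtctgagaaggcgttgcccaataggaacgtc
Atp5g2: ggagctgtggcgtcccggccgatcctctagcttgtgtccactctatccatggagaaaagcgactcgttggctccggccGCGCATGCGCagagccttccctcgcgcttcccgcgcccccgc
Atp5g3: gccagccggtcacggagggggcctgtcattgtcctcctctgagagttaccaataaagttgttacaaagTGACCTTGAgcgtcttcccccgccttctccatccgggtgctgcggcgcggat
The capitals mark NRF1 letters in Ndufa11, Sdhb, Cox6a1 and Atp5g2, ETS and then NRF1 letters in Uqcr11, and ERR letters on the other strand in Atp5g3. Where the capitals run to 10 bases, NRF1 letters overlap their own reverse complement. These are matches of letters, and no binding was measured.

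Levels of single subunits in naive cells ran from 9.55 to 596 CPM in CAST/Ei and from 10.9 to 1106 CPM in C57BL/6. Per kilobase of exonic length, Cox6a1, a small subunit of complex IV, was highest in each of the 4 groups. It stood at 884 and 1023 CPM per kb in cultured and naive CAST/Ei cells, and at 1419 and 1938 CPM per kb in cultured and naive C57BL/6 cells. Cox4i1, the widely expressed form of subunit 4 of complex IV, came next in 3 groups, at 428 and 605 CPM per kb in cultured and naive CAST/Ei cells and 862 in naive C57BL/6 cells. In cultured C57BL/6 cells it followed Atp5g3, at 857 against 912 CPM per kb, with 46.02% of the Atp5g3 reads in 1 cell. Atp5g1, Atp5g2 and Atp5g3 encode precursors of the same c-ring protein of complex V, and Atp5g3 led in every group: in naive C57BL/6 cells it had 499 CPM per kb, against 17.7 for Atp5g1 and 14.95 for Atp5g2. These values rest on the annotated exons of all transcripts merged, which come to 4912 bases for Atp5g1, against 731 for Atp5g2 and 724 for Atp5g3. Without division by length the 3 genes had 86.7, 10.9 and 361 CPM, so the near-equal values of Atp5g1 and Atp5g2 depend on that length.

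Subunit levels were positively correlated from cell to cell. For the 58 subunits of each group between the 10th and 90th percentile of level, the median Spearman rho over pairs was 0.34 in cultured and 0.24 in naive CAST/Ei cells, and 0.32 in cultured and 0.40 in naive C57BL/6 cells. Other genes in the same range of levels had 0.14 and 0.02 in cultured and naive CAST/Ei cells and 0.13 and 0.02 in cultured and naive C57BL/6 cells. The sums of complexes I and IV went together at rho 0.67 and 0.86 in cultured and naive CAST/Ei cells and 0.77 and 0.92 in cultured and naive C57BL/6 cells. For the sums of complexes I and II, rho was 0.49 and 0.70 in cultured and naive CAST/Ei cells and 0.24 and 0.87 in cultured and naive C57BL/6 cells. The points are cells scaled to their own total reads, and the subunit sum itself had rho -0.54 and -0.31 with total reads in cultured and naive CAST/Ei cells and -0.09 and 0.11 in C57BL/6.

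With all neuron-like clusters together, the summed subunits in cultured cells stood below the naive level in both strains, with the smallest gap in complex IV. The 74 subunits held 7336 CPM in cultured CAST/Ei cells (Poisson interval 7315 to 7357), against 10757 CPM in naive ones (10740.5 to 10773), or 68.2%. They held 10146 CPM in cultured C57BL/6 cells (10100.1 to 10193), against 13189 CPM in naive ones (13166 to 13212), or 76.9%. Without the 15 naive C57BL/6 cells of 500 CPM or more of Nefh, a neurofilament gene, the naive sum was 11944 CPM. The cultured sum still holds the 3 cultured C57BL/6 cells past that level. Cultured CAST/Ei cells spanned 2499 to 23198 CPM (median 8433), against 4609.9 to 31937 CPM (median 10817) in naive cells. Cultured C57BL/6 cells spanned 5205 to 18528 CPM (median 9191), against 3371 to 44683 CPM (median 11209) in naive cells. Cell by cell the ranges thus overlapped widely in both strains. Over all cells the cultured and naive sums were 9274 and 10630.0 CPM in CAST/Ei and 12213 and 12669 CPM in C57BL/6.

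By complex, the cultured sum as a percent of the naive one was 61.6% in CAST/Ei and 70.4% in C57BL/6 for complex I, and 57.8% and 79.3% for complex II. It was 68.2% and 72.3% for complex III, 81.97% and 86.8% for complex IV, and 73.9% and 79.9% for complex V. The cell medians of complex IV lay close together, at 1724 CPM in cultured against 1744 CPM in naive CAST/Ei cells and 2273 against 2328 CPM in C57BL/6. Those of complex I were 3206 CPM in cultured against 4549 CPM in naive CAST/Ei cells and 3303 against 4433 CPM in C57BL/6.

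**Figure D1:**
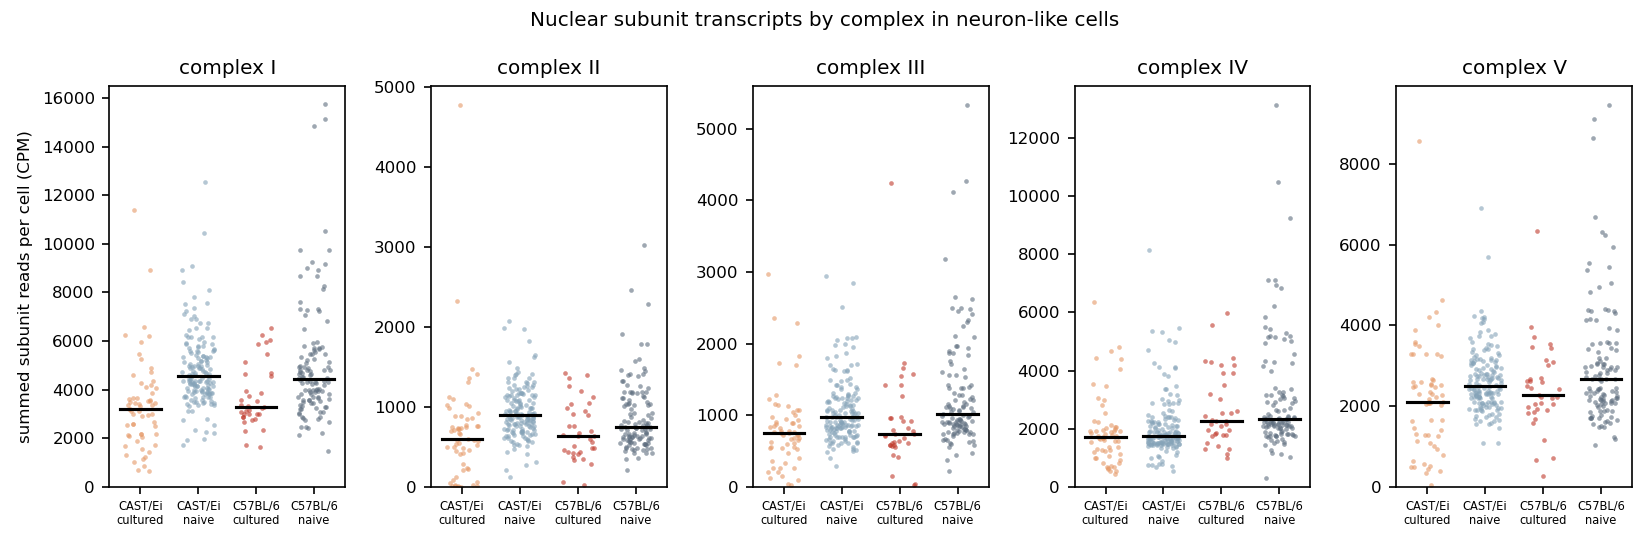
Summed subunit reads of each neuron-like cell in CPM, 1 panel per complex, with 1 point per cell and a bar at the median, for cultured and naive cells of CAST/Ei and C57BL/6. The complex I medians stand at 3206 CPM in cultured and 4549 CPM in naive CAST/Ei cells and at 3303 and 4433 CPM in cultured and naive C57BL/6 cells, those of complex IV lie closer together, and the points of all groups overlap.

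Gene by gene, most members past 2-fold were lower in cultured cells. In CAST/Ei they were 16 of the 83 members, with 0 past 2-fold in the other direction, where the background over all genes was 22.5% lower and 23.1% higher. In C57BL/6 12 were lower and 3 higher, against 24.3% and 20.8%. As shares of the 83 members, the counts in each direction lay below the background in both strains. Median-of-ratios scaling in place of CPM gave 16 lower and 0 higher in CAST/Ei (all genes 22.1% and 22.5%) and 12 and 6 in C57BL/6 (20.9% and 23.1%). Smaller differences pointed mostly down: the median log2 ratio of the members was -0.59 in CAST/Ei (all genes 0.01) and -0.35 in C57BL/6 (all genes -0.15). In both strains at once 58 members were below 0, or 69.9%, against a background of 38.5%. The medians in CAST/Ei and C57BL/6 were -0.65 and -0.54 for complex I, -0.89 and -0.46 for complex II, -0.50 and -0.24 for complex III, -0.21 and -0.07 for complex IV and -0.22 and -0.28 for complex V. Over all cells 7 members were lower and 0 higher in CAST/Ei (background 18.7% and 22.5%), and 5 lower and 2 higher in C57BL/6 (20.5% and 23%).

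In cultured C57BL/6 cells single cells held much of the reads of some members. For 14 members 1 cell held at least 40% of that group's reads, against 3 members in cultured CAST/Ei cells and 0 in naive cells of either strain. For the 14 members these were 5 different cells, 1 of which held that share for 6 members. Leaving out the cell with most reads of each gene takes a larger part of the reads from cultured cells, where the median share of the top cell over members was 12.8% in CAST/Ei and 16.8% in C57BL/6, against 2.92% and 4.94% in naive cells. Without the cell with most reads of each gene in each group, the count in C57BL/6 was 21 lower and 1 higher, against 31.3% and 13.3% of all genes, with a median of -0.63 (all genes -0.45). In CAST/Ei the same step gave 24 lower and 0 higher, against 32% and 14.9%. The share of all genes that was lower was also larger after this step. Without the cells of 500 CPM or more of the neurofilament gene Nefh, the C57BL/6 median was -0.13, with 12 members lower and 6 higher, against 24.6% and 20.6% of all genes. With those cells kept, the median was -0.35 for the members and -0.15 for all genes.

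The 2 main clusters of cultured neuron-like cells differed in subunit level. Cluster 3 held 31 CAST/Ei and 24 C57BL/6 cells and had Sprr1a, Sox11 and Gal, all textbook nerve injury genes, among its leading genes. Cluster 5 held 29 CAST/Ei and 10 C57BL/6 cells, with a median of 4649 detected genes against 9013 in cluster 3. The subunits summed to 9695 CPM in CAST/Ei and 10754 CPM in C57BL/6 cells of cluster 3, and to 5580.3 and 9392 CPM in cluster 5. Complex IV summed to 1965 and 2693 CPM in cluster 3 and to 1107 and 2143 CPM in cluster 5, against 1795 and 2834 CPM in naive cells. In CAST/Ei it thus lay above the naive level in cluster 3. Complex I summed to 3683 and 3892 CPM in cluster 3, against 4558 and 5091 CPM in naive cells. Cluster 3 alone gave 7 members at least 2-fold lower and 0 higher than in naive cells in each strain. Its background was 19% lower and 17.2% higher in CAST/Ei and 20.5% and 17.3% in C57BL/6, and the member medians were -0.12 and -0.21 (all genes -0.05 and -0.08). Cluster 5 alone gave 38 lower and 3 higher in CAST/Ei (background 34.4% and 25.4%), with a median of -0.97 where all genes had -0.15. In C57BL/6 it gave 43 lower and 9 higher (background 52.6% and 20.5%), with a median of -1.06 where all genes had -1.16.

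In both strains 9 members were at least 2-fold lower in cultured cells, or 10.8% against a background of 13.8%. They were Ndufa9, Ndufa10 and Ndufb10 of complex I, Sdhd of complex II, Uqcrc1 and Uqcrc2 of complex III, and Ndufaf3, Atp5s and Atp5sl. With cluster 3 alone 4 of the 9 were at least 2-fold lower in both strains, Uqcrc1, Ndufa10, Ndufaf3 and Atp5sl (background 13%), and all 9 were below 0 in both, as were 42.1% of all genes. The same genes lay lower in cluster 5. Ndufa9, an accessory subunit of complex I, had log2 ratios of -2.60 in CAST/Ei and -4.46 in C57BL/6 with cluster 5 alone, against -0.48 and -0.67 with cluster 3. Ndufb10, another accessory subunit, had -1.83 and -3.85, against -0.52 and -0.68.

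Ndufa10, an accessory subunit of complex I (chr1:92439010-92473860, 10 exons on GRCm38), spanned 0 to 803 CPM (median 59.1) in cultured CAST/Ei cells, against 0 to 438 CPM (median 183) in naive ones. In C57BL/6 it spanned 0 to 192 CPM (median 87.2) in cultured cells, against 1.82 to 858 CPM (median 212) in naive ones. The cultured medians lay below the naive ones while the ranges overlapped. The log2 ratios of the group levels were -1.26 in CAST/Ei and -1.79 in C57BL/6, and -1.20 and -1.20 with cluster 3 alone. Among core subunits of complex I, Ndufv1, the flavoprotein that takes electrons from NADH, had 80.8 against 249 CPM in cultured and naive CAST/Ei cells and 160.05 against 289 CPM in C57BL/6 (log2 ratios -1.61 and -0.85). Ndufs1, which carries iron-sulfur clusters, had 57.1 against 163.8 CPM in CAST/Ei and 161.3 against 162.4 CPM in C57BL/6 (log2 ratios -1.50 and -0.01), where 1 cultured C57BL/6 cell held 40.4% of the reads. With cluster 3 alone Ndufv1 had -0.96 in CAST/Ei and -1.41 in C57BL/6, and Ndufs1 -0.37 and -0.64. For both genes C57BL/6 was then the lower strain. Ndufv2, another iron-sulfur subunit, had log2 ratios of -0.61 in CAST/Ei and -0.78 in C57BL/6 with all clusters together. With cluster 3 alone it had 0.08 and -0.14, against -1.37 and -4.90 with cluster 5 alone. With all clusters together Ndufb8 had -0.73 in CAST/Ei and -0.81 in C57BL/6, and Ndufa4 -0.65 and -0.62. Both were the complex I genes with most reads over all neuron-like cells. Ndufa4 is named for complex I and has since been found in complex IV.

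Complex II is succinate dehydrogenase, which also works in the TCA cycle, and its 4 subunits did not share a direction in either strain. Sdhd, a membrane anchor, had 86.2 against 205 CPM in cultured and naive CAST/Ei cells and 106.96 against 243 CPM in C57BL/6 (log2 ratios -1.24 and -1.18). Sdhb, the iron-sulfur subunit, had log2 ratios of -0.54 and -0.93. Sdha, the flavoprotein, had 102.6 against 253 CPM in CAST/Ei and 263 against 261 CPM in C57BL/6 (log2 ratios -1.29 and 0.01), where 1 cultured C57BL/6 cell held 40.9% of the reads and the cell medians were 112.5 against 211 CPM. With cluster 3 alone the Sdha ratios were -0.46 in CAST/Ei and -0.69 in C57BL/6. Sdhc, the other anchor, had 73.1 against 64.8 CPM in CAST/Ei and 186 against 79.5 CPM in C57BL/6 (log2 ratios 0.17 and 1.22). One cultured C57BL/6 cell held 40.2% of its reads, and without the cell with most reads in each group the C57BL/6 ratio was 0.59.

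Uqcrc1, a core protein of complex III (chr9:108936633-108949623, 13 exons), spanned 0 to 2803 CPM (median 81.97) in cultured CAST/Ei cells, against 6.11 to 1205 CPM (median 290.5) in naive ones. In C57BL/6 it spanned 0 to 590.0 CPM (median 110.3) in cultured cells, against 0 to 2049 CPM (median 326) in naive ones. The medians differed more than 2-fold in both strains, and single cells overlapped. The group levels of 119.995 against 304 CPM in CAST/Ei and 132.01 against 452 CPM in C57BL/6 gave log2 ratios of -1.33 and -1.77, and -1.22 and -1.22 with cluster 3 alone. Uqcrc2, the other core protein, had log2 ratios of -1.20 and -1.27, or -0.45 and -0.61 with cluster 3 alone. Uqcrfs1, the Rieske iron-sulfur protein, had -0.70 and -0.56. Uqcrq and Uqcrb, small subunits of the same complex, lay above 0 in both strains, at 0.36 and 0.11 in CAST/Ei and 0.64 and 0.72 in C57BL/6, with 53.5% of the cultured C57BL/6 Uqcrq reads in 1 cell.

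In complex IV no member passed 2-fold after culture in either strain. Cox4i1 had 327 against 463 CPM in cultured and naive CAST/Ei cells and 656 against 659 CPM in C57BL/6 (log2 ratios -0.50 and -0.01). Cox6a1 had log2 ratios of -0.21 and -0.45, Cox5a, a matrix-side subunit, 0.25 and 0.91, and Cox5b, which binds zinc, -0.94 and -0.26. The complex IV share of a cell's subunit reads was larger after culture, with medians of 20.5% in cultured against 16.9% in naive CAST/Ei cells and 25.004% against 21.9% in C57BL/6.

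In complex V, Atp5a1 and Atp5b, the alpha and beta subunits of the catalytic head, had 298 against 562 CPM and 375 against 596 CPM in cultured and naive CAST/Ei cells (log2 ratios -0.91 and -0.67). In C57BL/6 they had 299 against 737 CPM and 455 against 745 CPM (log2 ratios -1.30 and -0.71). Atp5c1, the gamma subunit that turns inside the head, had -0.72 and 0.07, and Atp5o, of the outer stalk, -0.60 and -0.46. Atp5g2 was among the 3 highest members in both strains, at low levels. It spanned 0 to 87.7 CPM (median 14.5) in cultured against 0 to 40.9 CPM (median 8.93) in naive CAST/Ei cells, and 0 to 217 CPM (median 14.6) in cultured against 0 to 71.8 CPM (median 10.3) in naive C57BL/6 cells. The ranges overlapped, and the log2 ratios were 0.93 in CAST/Ei and 1.21 in C57BL/6. One cultured C57BL/6 cell held 44.8% of the reads, and without the cell with most reads in each group the C57BL/6 ratio was 0.52. The other c-ring genes had -0.18 and -0.28 (Atp5g1) and -0.22 and 0.87 (Atp5g3). Atp5e, the epsilon subunit, had 0.74 in CAST/Ei and -0.02 in C57BL/6. Its CAST/Ei ratio was -0.05 with cluster 3 alone, against 1.07 with cluster 5 alone. That of Atp5c1 was 0.00 with cluster 3 alone, against -1.62 with cluster 5 alone.

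Of the genes that matched by name alone, Ndufaf3 (chr9:108565537-108567434, 5 exons), an assembly factor, had 11.7 against 40.9 CPM in cultured and naive CAST/Ei cells and 18.4 against 57.5 CPM in C57BL/6 (log2 ratios -1.72 and -1.59). Atp5s had 10.4 against 77.4 CPM in CAST/Ei and 13.8 against 34.4 CPM in C57BL/6 (-2.78 and -1.26), and Atp5sl, from low levels, -2.33 and -1.53. No read of Atp5s was present in 31 of 61 cultured CAST/Ei cells, against 10 cells of the larger naive CAST/Ei group. Ndufaf1, another assembly factor, had 26.4 against 44.3 CPM in CAST/Ei and 203 against 34.7 CPM in C57BL/6 (-0.73 and 2.51). Its cell medians were 4.82 CPM in cultured against 30.9 CPM in naive C57BL/6 cells, opposite in direction to the summed levels, and 1 cultured cell held 59.2% of the reads. Without the cell with most reads in each group the C57BL/6 ratio was 1.41. With cluster 3 alone Ndufaf1 was below 0 in both strains, at -0.505 in CAST/Ei and -0.39 in C57BL/6. The remaining factors had log2 ratios in CAST/Ei and C57BL/6 of 0.88 and -0.06 (Ndufaf2), -0.64 and 0.27 (Ndufaf4), -1.20 and -0.88 (Ndufaf5), -0.48 and -0.78 (Ndufaf6) and -0.90 and -1.50 (Ndufaf7).

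**Figure D2:**
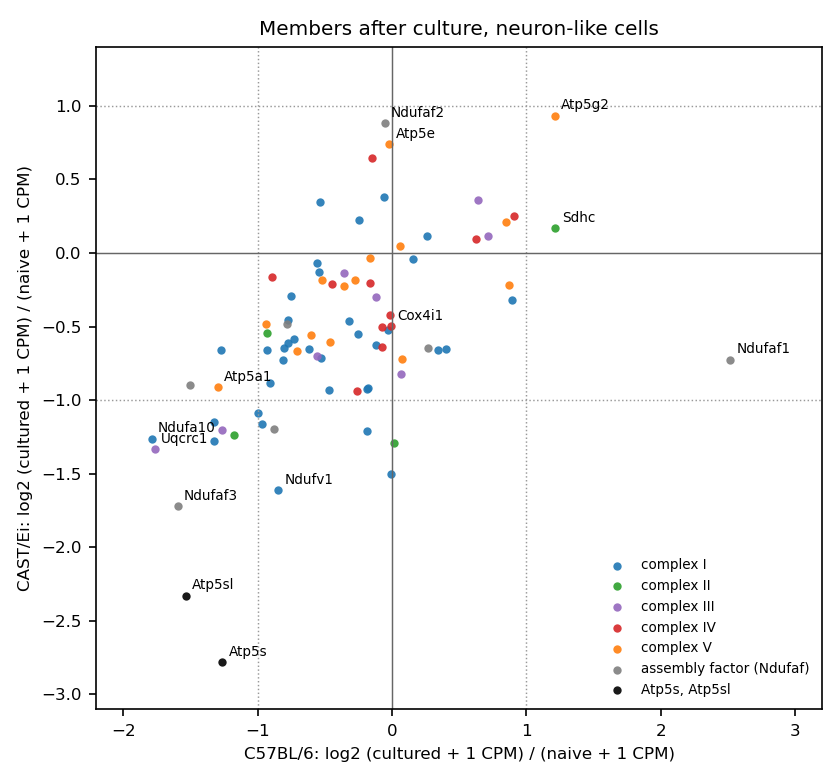
Log2 ratio of cultured over naive neuron-like cells (1 CPM added) for the 83 members, with C57BL/6 on the horizontal and CAST/Ei on the vertical axis, coloured by complex, and dotted lines at 2-fold. Most members lie below 0 on both axes, Uqcrc1 and Ndufa10 lie past -1 on both, and Ndufaf1 stands apart at 2.51 in C57BL/6 and -0.73 in CAST/Ei.

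Subunits with a longer merged exonic length had lower ratios. The 37 subunits with more than 1033.5 exonic bases had a median log2 ratio of -0.65 in CAST/Ei and -0.71 in C57BL/6, and the 37 shorter ones -0.32 and -0.16. Across the 74 subunits the Spearman rho of ratio and length was -0.37 in CAST/Ei and -0.35 in C57BL/6, against 0.13 and 0.09 across all genes with a length. Those genes cover another range of lengths, as only 498 of 11185 fell on the shorter side of the same split. Over all genes the longer and shorter sides had medians of 0.02 and -0.15 in CAST/Ei and -0.15 and -0.07 in C57BL/6. Genes are not independent replicates in such a value.

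Related lists of genes were set beside the members, and some genes at the same end of a list in both strains are named. Over all genes the shares past 2-fold were 22.5% lower and 23.1% higher in CAST/Ei and 24.3% and 20.8% in C57BL/6. The shares lower among assembly factors, glycolysis genes and hypoxia genes were above these in both strains, those of carriers, TCA cycle, biogenesis and mitochondrial ribosome genes were near or below them, and no list was tested. Of 25 other assembly factors in the table, 9 were lower by 2-fold or more and 0 higher in CAST/Ei (median -0.57), with 9 and 2 in C57BL/6 (median -0.80). Foxred1, an assembly factor of complex I, had 7.14 against 30.95 CPM in cultured and naive CAST/Ei cells and 4.04 against 24.6 CPM in C57BL/6. Of 17 TCA cycle genes, 2 were lower by 2-fold or more and 0 higher in CAST/Ei (median -0.32), with 3 and 2 in C57BL/6 (median -0.80). Of 9 carriers and channels, 2 were lower by 2-fold or more and 0 higher in CAST/Ei (median -0.21), with 2 and 0 in C57BL/6 (median -0.32). Ckmt1, a mitochondrial creatine kinase, had 7.14 against 114.3 CPM in cultured and naive CAST/Ei cells and 3.59 against 234 CPM in C57BL/6. Slc25a4, an ADP/ATP carrier, had 384 against 1194 CPM in cultured and naive CAST/Ei cells and 449 against 1500.0 CPM in C57BL/6. Of 19 glycolysis genes, 10 were lower by 2-fold or more and 1 higher in CAST/Ei (median -1.01), with 9 and 1 in C57BL/6 (median -0.77). Aldoc, an aldolase, had 13.7 against 414 CPM in cultured and naive CAST/Ei cells and 16.1 against 247 CPM in C57BL/6. Slc2a1, a glucose transporter, had 95.3 against 22.5 CPM in cultured and naive CAST/Ei cells and 71.2 against 33.9 CPM in C57BL/6. Of 12 biogenesis regulators, 0 were lower by 2-fold or more and 1 higher in CAST/Ei (median 0.61), with 1 and 3 in C57BL/6 (median 0.46). Gabpb1, a subunit of NRF2, had 22.5 against 10.8 CPM in cultured and naive CAST/Ei cells and 29.7 against 10.5 CPM in C57BL/6. Of 8 hypoxia genes, 4 were lower by 2-fold or more and 3 higher in CAST/Ei (median -0.86), with 3 and 1 in C57BL/6 (median 0.00). Hif1a, the oxygen-regulated subunit of the hypoxia factor, had 292 against 56.04 CPM in cultured and naive CAST/Ei cells and 238 against 61.7 CPM in C57BL/6. Bnip3, a mitophagy receptor, had 82.4 against 304 CPM in cultured and naive CAST/Ei cells and 61.2 against 298 CPM in C57BL/6. Of 76 mitochondrial ribosomal proteins, 9 were lower by 2-fold or more and 1 higher in CAST/Ei (median -0.29), with 8 and 2 in C57BL/6 (median -0.31).

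Between the strains, naive CAST/Ei neurons held less complex IV transcript than naive C57BL/6 neurons. Complex IV summed to 1795 CPM in CAST/Ei (Poisson interval 1788 to 1801), against 2834 CPM in C57BL/6 (2823 to 2845), or 63.3%. The same percentages were 89.5% for complex I, 96.3% for complex II, 77.1% for complex III and 82.6% for complex V. Complex IV spanned 538 to 8145 CPM (median 1744) over naive CAST/Ei cells, against 284 to 13153 CPM (median 2328) over naive C57BL/6 cells, and the ranges overlapped. Without the 15 naive C57BL/6 cells that had 500 CPM or more of Nefh, a neurofilament gene, the CAST/Ei and C57BL/6 sums were 4558 and 4649 CPM for complex I, 896 and 872 CPM for complex II and 981 and 1139 CPM for complex III. They were 1795 and 2510.4 CPM for complex IV and 2526 and 2774 CPM for complex V.

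The complex IV share of a cell's subunit reads separated the strains further. In naive cells its median was 16.9% in CAST/Ei (quartiles 15.7 and 18.6%), against 21.9% in C57BL/6 (19.7 and 24.1%). The ranges between quartiles did not overlap, while the full ranges of 7.81 to 31.8% and 8.43 to 38.2% did. In cultured cells the medians were 20.5% in CAST/Ei and 25.004% in C57BL/6. Of the naive difference in complex IV, 50.3% came from Cox6a1, 18.9% from Cox4i1 and 10.5% from Cox7a2l. The submitters' processing notes name mm10, a C57BL/6 genome, and the part of strain sequence differences in these counts was not tested.

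**Figure D3:**
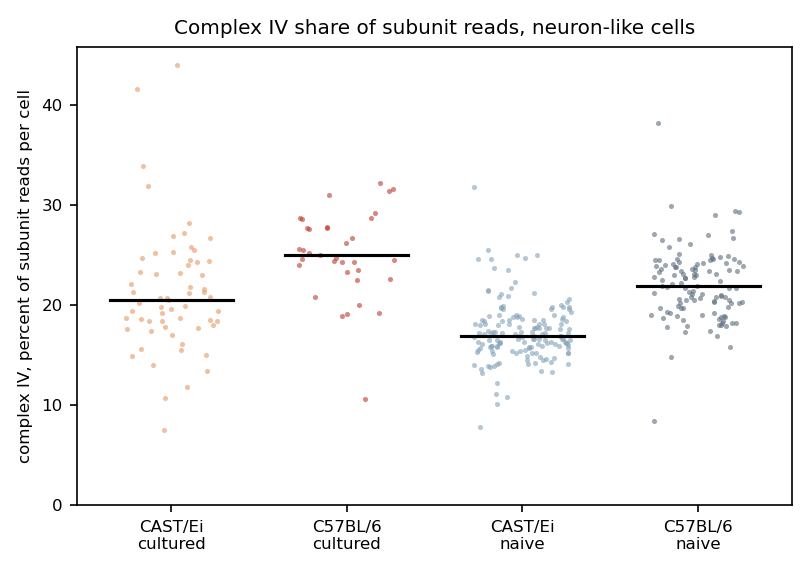
Percent of each neuron-like cell's subunit reads that belong to complex IV, with 1 point per cell and a bar at the median, axis from 0. The medians are 20.5% in CAST/Ei and 25.004% in C57BL/6 for cultured cells, and 16.9% and 21.9% for naive cells.

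Gene by gene, 3 of the 83 members were at least 2-fold lower in naive CAST/Ei cells and 1 higher, against a background of 6.2% lower and 7.23% higher. In all, 67 members were below 0, where 45.2% of all genes were, and the median was -0.26 (all genes 0.06). In cultured cells 15 were lower in CAST/Ei and 0 higher, against 14% and 21.4%. Median-of-ratios scaling gave 21 lower and 0 higher, against 17.7% and 16.4% of all genes. Without the cell with most reads of each gene in each group the cultured count was 5 lower (10.1% of all genes), and with cluster 3 alone it was 2, Cox7a2l and Cox5b (7.88%). Ndufs3, a core subunit of complex I, Ndufaf7 and Sdhb had the highest cultured ratios among members of 10 CPM or more, at 0.65, 0.63 and 0.49. In naive and cultured cells alike 52 members were below 0 (62.7%, background 24.6%). Over all cells 3 members were lower and 1 higher in naive CAST/Ei cells (8.08% and 6.71% of all genes), and 4 lower and 0 higher in cultured ones (11.9% and 15.6%).

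Cox7a2l is known to join complexes III and IV into supercomplexes, and C57BL/6 mice are known to carry a shorter form of it (chr17:83501918-83517330, 4 exons). It spanned 5.11 to 142.1 CPM (median 47.4) in naive CAST/Ei cells, against 14.4 to 380.0 CPM (median 142.4) in naive C57BL/6 cells. The median C57BL/6 cell thus stood level with the highest CAST/Ei cell. The group levels of 48.95 against 157.98 CPM gave a log2 ratio of -1.67. In cultured cells it had 34.3 against 150.0 CPM (-2.10), with 46.1% of the C57BL/6 reads in 1 cell, or -1.49 without the cell with most reads in each group. Cox5b (chr1:36691449-36693681, 4 exons) spanned 0 to 190.4 CPM (median 14.8) in naive CAST/Ei cells, against 0 to 138.97 CPM (median 30.9) in naive C57BL/6 cells. Its ranges overlapped, and its log2 ratio was -1.21 in naive and -1.89 in cultured cells.

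Cox6a1 (chr5:115345642-115348981, 3 exons) carried the largest difference in CPM within complex IV in naive cells and stayed within 2-fold. In cultured cells Cox4i1 carried the largest, at -329 CPM (CAST/Ei minus C57BL/6), against -306 CPM for Cox6a1. Cox6a1 spanned 105.99 to 4654 CPM (median 585) in naive CAST/Ei cells, against 98.4 to 5181 CPM (median 962) in naive C57BL/6 cells. The ranges overlapped, and the levels of 584 against 1106 CPM gave a log2 ratio of -0.92, with -0.68 in cultured cells. Cox4i1 had -0.51, Cox5a -0.55, Cox6b1 -0.43, Cox7a2 -0.35 and Cox8a -0.35 in naive cells. Outside complex IV, Ndufaf2, an assembly factor of complex I, had 15.8 against 39.3 CPM in naive cells (-1.26), or -0.85 without the Nefh-rich cells. Atp5s had 77.4 against 34.4 CPM (1.14), Ndufb6, an accessory subunit of complex I, 288 against 166.3 CPM (0.79), and Ndufaf4, an assembly factor, 60.6 against 37.5 CPM (0.68). Of the core subunits of complexes I and II described above, the naive log2 ratios were 0.01 for Ndufs1, -0.21 for Ndufv1, -0.04 for Ndufv2, -0.04 for Sdha and 0.11 for Sdhb.

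**Figure D4:**
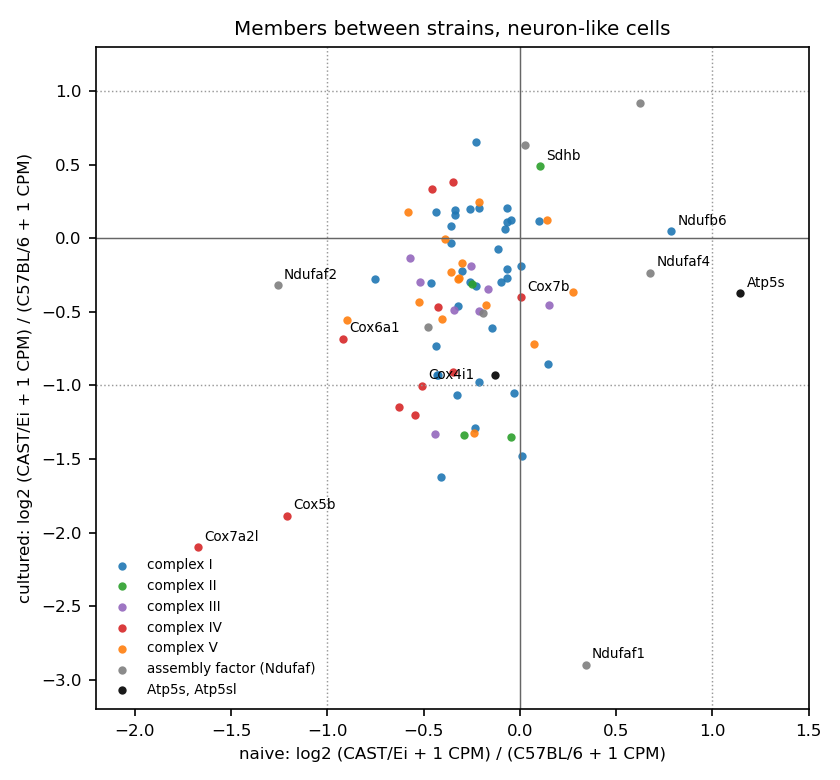
Log2 ratio of CAST/Ei over C57BL/6 neuron-like cells (1 CPM added) for the 83 members, with naive cells on the horizontal and cultured cells on the vertical axis, coloured by complex, and dotted lines at 2-fold. Cox7a2l, at -1.67 in naive and -2.10 in cultured cells, and Cox5b, at -1.21 and -1.89, lie past 2-fold on both axes, and Ndufaf1 stands apart at 0.34 and -2.90.

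Among naive C57BL/6 neurons, cells rich in Nefh, the heavy neurofilament chain and a marker of large myelinated neurons, had more subunit reads than the remaining cells. The 35 cells with 100 CPM or more of Nefh held 16814 CPM of subunits, against 11404 CPM in the other 81 (1.47-fold). They spanned 6063 to 44683 CPM (median 16191), against 3371 to 24261 CPM (median 10213) in the others, with overlap. At 500 CPM of Nefh, 15 cells held 26170.1 CPM, against 11944 CPM in the remaining naive C57BL/6 neurons (2.19-fold), and 11 of the 15 made up the whole of cluster 15. The 3 cells just inside this threshold, with 542, 579.7 and 803 CPM of Nefh, had 11509.8, 19744 and 9650.4 CPM of subunits. The 3 just outside, with 297, 316 and 321 CPM, had 24702, 9486 and 16542 CPM. The 15 cells had a median of 493341 reads, against 680299 in the remaining cells. Nefh did not set a single subtype apart. Of the 15 cells, 6 also had 100 CPM or more of Tac1, 3 of Ntrk2, 1 of Th and 1 of Mrgprd. Of the 35 cells, 28 also had 100 CPM or more of a marker of another subtype. In CAST/Ei the 32 cells with 100 CPM or more of Nefh held 10456 CPM, against 10812 CPM in the remaining cells (0.967-fold). The highest naive CAST/Ei cell had 319 CPM of Nefh, against 5673 CPM in C57BL/6, so cells like the 15 could not be compared between strains.

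In the 15 Nefh-rich cells the higher level ran through each complex. Of the 83 members 55 were at least 2-fold higher than in the remaining naive C57BL/6 neurons and 0 lower, against a background of 10.1% higher and 19.8% lower. All 74 subunits were above 0. The medians were 1.10 for complex I (26 of 36 past 2-fold), 0.81 for complex II (0 of 4), 1.37 for complex III (6 of 8), 1.43 for complex IV (9 of 11) and 1.13 for complex V (11 of 15), where all genes had -0.19. The highest ratio was that of Ndufaf2 (142.9 against 29.4 CPM, log2 ratio 2.24), followed by Atp5g1 (253.8 against 70.7 CPM, 1.83), Ndufa12 (1.75), Cox5a (1.75), Ndufa3 (1.70) and Cox4i1 (1778 against 552 CPM, 1.69). The other c-ring genes had 1.24 (Atp5g3) and 0.60 (Atp5g2). The lowest subunits were Ndufs4 (0.04) and Cox7a2l (0.36), and the 3 members below 0 were Ndufaf7 (-0.71), Ndufaf3 (-0.16) and Atp5s (-0.05). The medians of the other lists were 0.82 for the TCA cycle, 0.82 for carriers, 0.63 for other assembly factors, 0.43 for the mitochondrial ribosome, 0.38 for glycolysis, 0.00 for biogenesis regulators and -0.41 for hypoxia genes.

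The other naive classes were cut at 100 CPM of a marker and overlap in part. In C57BL/6 the cells with Mrgprd and those with Mrgpra3 or Mrgprb4 lay below the remaining cells, which include the Nefh-rich ones. Cells with Mrgprd, a receptor of non-peptidergic nociceptors, held 10149 against 10953 CPM in CAST/Ei (0.927-fold, 45 cells) and 9057 against 14103 CPM in C57BL/6 (0.642-fold, 29 cells). With Mrgpra3 or Mrgprb4, receptors of itch and touch neurons, the folds were 0.872 in CAST/Ei and 0.665 in C57BL/6. With Th, which marks low-threshold C fibres, they were 1.01 and 1.08, and with Tac1, the substance P gene, 0.970 and 0.949. The folds of cell medians were 1.04 and 1.29 for Th and 1.05 and 1.11 for Tac1, whose sums and medians thus lay on opposite sides of 1. At 500 CPM of Tac1 the folds of sums were 0.970 and 1.09. With Ntrk2, the BDNF receptor, the folds of sums at 100 CPM were 0.932 and 1.18 (9 cells in each strain). The 9 Ntrk2 cells of C57BL/6 had a median of 19470.0 CPM. This lay above the 16191 CPM of the 35 cells with 100 CPM or more of Nefh. It lay below the 24358 CPM of the 15 cells with 500 CPM or more of Nefh, among which were 3 of the 9. With Sst or Nppb, peptides of itch neurons, the folds were 1.20 in CAST/Ei (16 cells) and 0.919 in C57BL/6 (6 cells, with a fold of cell medians of 1.01).

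**Figure D5:**
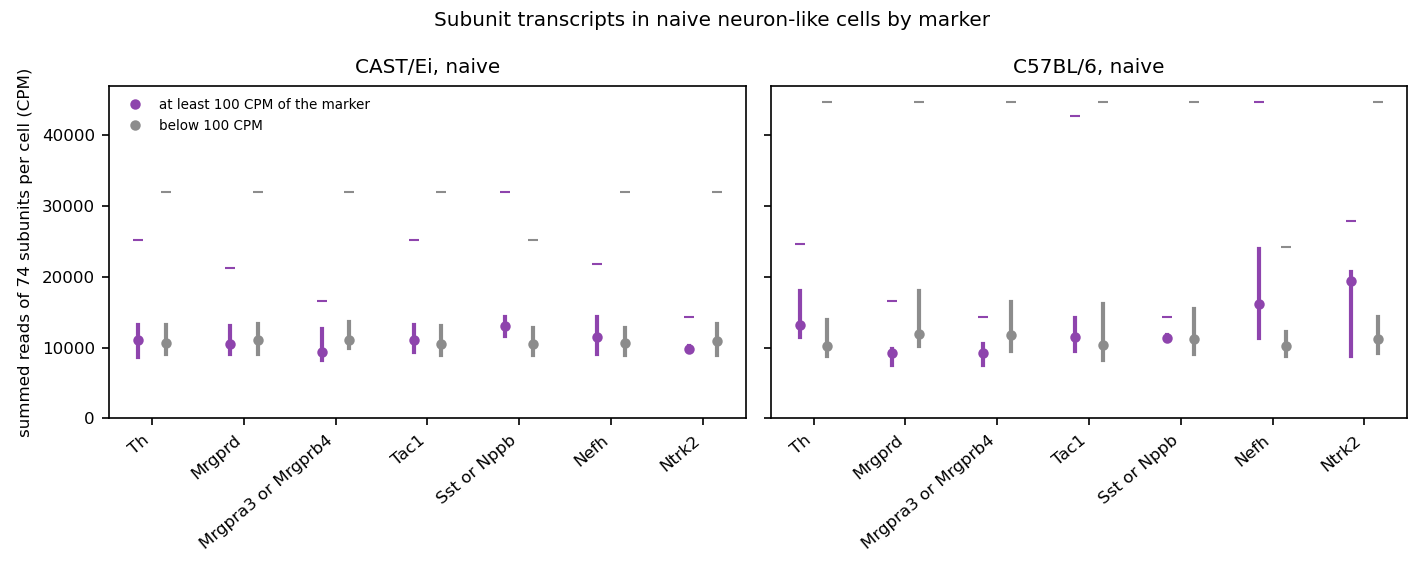
Summed subunit reads per naive neuron-like cell in CPM, CAST/Ei left and C57BL/6 right, for cells with at least 100 CPM of a marker and for the remaining cells, with dots at medians, bars at quartiles and dashes at the highest cell. Nefh cells have a median of 11476 against 10598 CPM in CAST/Ei and of 16191 against 10213 CPM in C57BL/6.

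In 3 clusters of other cultured cells the subunit sums were above those of cultured neuron-like cells of the same strain. The fibroblast-like cluster held 12937 CPM in CAST/Ei (13 cells) and 12202 CPM in C57BL/6 (43 cells). Of the clusters in which glial markers had the highest mean, one held 11168 CPM in its 25 CAST/Ei cells. The other, with genes of dividing cells such as Cenpf among its leading genes, held 13028 CPM in its 30 C57BL/6 cells. The unnamed naive cluster held 9307 CPM in CAST/Ei (18 cells) and 9736 CPM in C57BL/6 (16 cells).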

How the data were processed

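Single cells of dorsal root ganglia were captured on a Fluidigm C1 chip and sequenced, with up to 192 cells of all conditions per sequencing run, per the labels' protocols. The authors deposited raw counts per gene for 516 cells. Bowtie2, SAMtools and mm10 are named in the submitters' processing notes, while no source used here gives the program that counted reads, its annotation or its treatment of reads matching several places, so that members with pseudogene copies are uncertain. Counts were whole and were summed per group. All cells entered, with 17258 to 2978345 reads in cultured and 13932 to 2897867 in naive cells; no doublets were called.

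Counts were clustered with scanpy 1.11.5 (2000 variable genes, 20 components, 15 neighbours, Leiden resolution 1), and clusters were named from marker lists. Levels are CPM of summed counts with exact 95% Poisson intervals, and differences log2 ratios after adding 1 CPM; a 2-fold ratio served as the call, and no test was run because each group is 1 sample. The procedure was tested on simulated data. Exonic lengths came from GENCODE M21 (GRCm38) and promoters from RefSeq (GRCm38.p6). Members, lists, markers and thresholds were chosen with earlier results of these data known. Genes named one by one were the 3 highest and 3 lowest ratios of each comparison among members of at least 10 CPM, the 2 highest CPM per complex, listed core subunits, isoforms of 1 protein, the members that are no subunits, and genes among the 2 highest or lowest of the other lists; Ndufa9, Ndufb10, Uqcrb, Ndufa3, Ndufa12, Ndufs4 and the genes whose promoters are printed were singled out after their values were seen. Not every gene that this rule lists is reported here. Alternatives were other pseudocounts, scaling, filter, depth, cell sets and marker thresholds.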

Additional observations from a re-analysis of the deposited data

Results flagged for a closer look

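Ndufaf1 stood on opposite sides of 0 in the strains after culture, but not in cluster 3, the larger cluster of cultured neuron-like cells. In neuron-like cells its log2 ratio of cultured over naive cells was -0.73 in CAST/Ei and 2.51 in C57BL/6, a difference of -3.24, and over all cells -0.88 in CAST/Ei and 0.88 in C57BL/6, a difference of -1.76. The difference was not tested. In cultured C57BL/6 neuron-like cells 1 cell held 59.2% of the Ndufaf1 reads, 13 of 35 cells had none, and without the cell with most reads in each group the C57BL/6 ratio was 1.41. With cluster 3 alone the ratio was below 0 in both strains, at -0.505 in CAST/Ei and -0.39 in C57BL/6. Cultured C57BL/6 cells had 26.2 CPM of Ndufaf1 in cluster 3, against 496.55 CPM in the 10 cells of cluster 5.

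Atp5s stood on opposite sides of 0 between strains in cultured and naive cells. Over all cells its log2 ratio of CAST/Ei over C57BL/6 was -1.30 in cultured cells and 1.28 in naive cells, a difference of -2.58. The difference was not tested. In neuron-like cells the ratios were -0.37 in cultured and 1.14 in naive cells.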

How the results depend on the processing

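No paired analysis was possible because the numbers in the titles only count cells and no result came from a test. Of 50 neuron-like ratios of members past 2-fold, none changed sign under the alternatives run on them, which left out single clusters. Under these alternatives 434 values stayed past 2-fold and 66 did not. Those 66 were 24 with the mean of per-cell CPM, 15 with thinning to 200000 reads, 12 without the cell with most reads of each gene, 11 with a pseudocount of 10 CPM, 2 with each cell named by its own marker means and 2 without Nefh-rich cells. Counts below are members at least 2-fold lower or higher, medians are log2 ratios, and the cause was not tested.

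Over all cells, a pseudocount of 10 CPM left 3 lower for culture in CAST/Ei, 2 lower and 0 higher in C57BL/6, and 1 and 2 lower between strains in naive and cultured cells. Median-of-ratios scaling gave a median of -0.27 for culture in CAST/Ei and 0 higher in C57BL/6. The mean of per-cell CPM gave 1 higher for culture in CAST/Ei, 0 in C57BL/6, and a median of -0.26 between strains in cultured cells. Thinning left 2 lower for culture in C57BL/6, and leaving out the cell with most reads 1 higher. Subunits alone gave 3 lower for culture in CAST/Ei, 2 in C57BL/6, and between strains 0 higher in naive and 2 lower in cultured cells.

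In neuron-like cells, culture in CAST/Ei had a median of -0.42 (10 lower) with the mean of per-cell CPM, -0.36 with thinning, -0.75 (26 lower) without the 25% of cells highest in glial markers, -0.70 without the cell with most reads, -0.12 (7 lower) with cluster 3 and -0.97 (38 lower, 3 higher) with cluster 5 alone. Culture in C57BL/6 had 6 higher with median-of-ratios scaling, 6 without the cells highest in glial markers, 6 with each cell named by its own marker means and 6 without the Nefh-rich cells (median -0.13). It had 21 lower, 1 higher and a median of -0.63 without the cell with most reads, 7 lower and 0 higher with cluster 3, and 43 lower, 9 higher and a median of -1.06 with cluster 5 alone. Between strains, naive cells had 1 lower and 0 higher with a pseudocount of 10 CPM, 0 higher with thinning and 0 with subunits alone. Their median was -0.18 with the mean of per-cell CPM, -0.18 with thinning, -0.15 without the cells highest in glial markers and -0.13 without the Nefh-rich cells. Cultured cells had 1 higher with a pseudocount of 0.1 CPM, and a median of -0.52 with median-of-ratios scaling, -0.22 (5 lower, 1 higher) with the mean of per-cell CPM and -0.24 (8 lower) with thinning. It was -0.20 (2 lower) with cluster 3 and -0.0616 (29 lower, 20 higher) with cluster 5 alone, and 5 were lower without the cell with most reads.

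Among naive cells the median subunit sum of Nefh cells was 24358 CPM in C57BL/6 at 500 CPM of Nefh and also for cells past the threshold in 1 marker class. For such cells it was 9187 CPM with Nefh in CAST/Ei and 7849 CPM with Mrgprd in C57BL/6. These values rest on few cells, as most cells passed the threshold in several classes. These were 31 of the 32 Nefh cells in CAST/Ei, and 28 of 35 Nefh and 19 of 29 Mrgprd cells in C57BL/6. The CAST/Ei value is thus that of the remaining cell and no group median. The alternatives without Nefh-rich cells, with single clusters and without the cell with most reads were chosen after seeing the data.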
